A study of Mus musculus with 2 samples.

Results

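The cells described here were the MHC class II monocyte-derived cells of subcutaneous B16F10 tumours, 528 of the 7418 kept cells of the single-cell RNA sequencing data (342 of 3861 in the WT library and 186 of 3557 in the KO library). B16F10 is a mouse melanoma cell line. A cell was a member when it met every condition of a rule on its own UMIs, the molecular tags that count captured transcripts. H2-Aa, H2-Ab1, H2-Eb1 and Cd74 together had to make up at least 0.5% of its UMIs, Tyrobp or Fcer1g had to have a UMI, and the melanoma genes Pmel, Dct, Mlana and Tyrp1 had to stay under 0.5%. No UMI of the dendritic cell genes Flt3, Zbtb46, Xcr1, Clec9a, Ccr7 and Siglech or of the B cell gene Cd79a was allowed. A member also had at most 1 of the monocyte genes Hp, Chil3, Ifitm6, Ly6c2 and Plac8, at most 2 of the macrophage genes Vcam1, Fcrls, Npl, Stab1, Gatm, Gdf15 and Ccl12, and at most 2 of the resident macrophage genes Lyve1, Fcna, Ccl8, Cd163 and Cbr2. These genes chose the cells, so their levels in the members are given as a description only.

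Each library pooled 2 small tumours, and there was 1 library per host genotype. WT hosts were Rosa26::CreERT2 mice with both Atf4 alleles intact (Atf4 WT/WT). KO hosts carried the same Cre and floxed Atf4 alleles that tamoxifen, given by mouth to both genotypes, converts to the deleted form (Atf4 Δ/Δ). The mice were on a C57BL/6 background, were 11 weeks old and per the labels were of both sexes, pooled. The Cre is active in all host tissues, so the deletion was not limited to myeloid cells. The injected melanoma cells kept their own Atf4 in both libraries, and the genotype concerns the host cells alone. The comparison asks how loss of host ATF4, a transcription factor of the integrated stress response, goes with the state of these cells. With 1 library per genotype no test of the genotype was possible, and the intervals below are 95% intervals that cover counting error only.

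Monocytes that leave the blood and enter a tumour can take on features of macrophages, of dendritic cells or of both. MHC class II molecules present peptides from engulfed proteins to CD4+ T cells: H2-Aa and H2-Ab1 encode the chains of I-A, H2-Eb1 encodes a chain of I-E, and Cd74 is the invariant chain that escorts them to the endosome. There H2-DM, encoded by H2-DMa and H2-DMb1, exchanges the last fragment of Cd74 for peptide. Transcription of these genes depends on the co-activator CIITA, which is recruited by factors bound to the X and Y boxes just upstream of the genes.

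Promoters are shown for the members of this gene group that held both boxes within the 300 bases around the start, since the cells were chosen on these genes and H2-DMb1, a marker named with these cells, was no condition of the rule. The sequences are from RefSeq on GRCm38.p6, 5′ to 3′ on the strand of the gene. Capitals mark the 2 cores searched for, CTNGNAACT of the X box and GATTGG of the Y box. The stretch printed for H2-Aa lies at chr17:34287852-34287922 on the minus strand. Those printed for H2-Eb1, at chr17:34305758-34305827, and for H2-DMb1, at chr17:34153079-34153149, lie on the plus strand.
H2-Aa: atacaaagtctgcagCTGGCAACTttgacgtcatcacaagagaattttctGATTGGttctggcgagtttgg
H2-Eb1: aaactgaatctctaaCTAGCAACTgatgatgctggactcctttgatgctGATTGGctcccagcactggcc
H2-DMb1: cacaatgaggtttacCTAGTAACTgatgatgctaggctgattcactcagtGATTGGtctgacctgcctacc
The X core began 84, 94 and 97 bases before the start in H2-Aa, H2-Eb1 and H2-DMb1, and 26, 25 and 26 bases separated it from the Y core. Over both strands the X core was in 4.10% of 32851 mouse promoter windows and the Y core in 16.1%. An X core followed within 50 bases by a Y core on the same strand was in 12 windows (0.0365%), and these 3 genes were among them. The windows of H2-DMa, H2-Oa and H2-Ob did not hold the pair. The letters were settled with these sequences in view, and a match is a description, not a binding site. H2-Ab1, Cd74 and Ciita had no entry in the table.

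**Figure D1:**
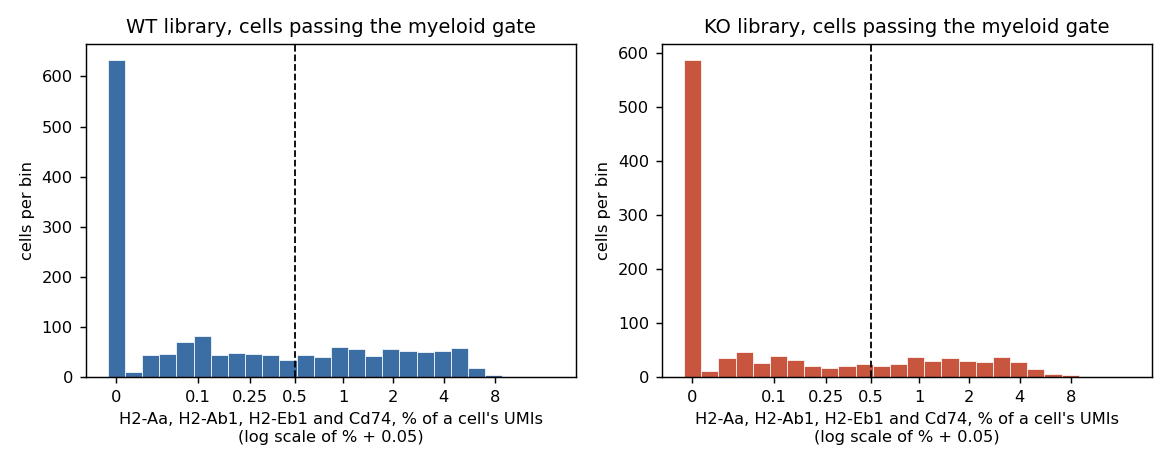
Share of UMIs taken by H2-Aa, H2-Ab1, H2-Eb1 and Cd74 (x axis, log of percent + 0.05, so cells at 0 sit in the first bar) against the number of cells (y axis) that passed the myeloid gate, for the WT and KO libraries. The broken line marks the 0.5% limit of the rule, and cells lie on both sides of it with no gap.

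The MHC class II genes took a median of 1.88% of UMIs in WT members and 1.91% in KO members, with highest values of 6.98% and 8.17%. The limit did not fall in a gap. The 3 WT members nearest to it held 0.504% to 0.508% and the 3 nearest excluded cells 0.499% to 0.485%, and in KO the values were 0.506% to 0.509% inside and 0.488% to 0.467% outside. Among WT cells that met all other conditions, 286 had no MHC class II UMI, 65 lay between 0.25% and 0.5%, 45 between 0.5% and 0.75%, and 56 at 4% or more. The KO numbers were 203, 30, 25 and 30.

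Members were shallow cells, as were most of the other myeloid sets. The medians were 1120 UMIs in WT and 1077 in KO for monocyte-gene cells and 1711.5 and 1675 for dendritic-gene cells. Cells that met every condition but the MHC class II limit had 1742 and 1657, and macrophage-gene cells 3586 and 3070. A WT member had a median of 1638 UMIs over 823.5 genes and a KO member 1313 over 704, against 11311 and 10518 UMIs in the melanoma-gene cells of the same libraries. Summed, the members gave 628397 UMIs in WT and 264485 in KO, and levels below are CPM, the UMIs of a gene scaled to the same total for every sum. Scrublet called 3 WT members and no KO member doublets. The libraries shared 10 cell barcodes, and 1 of them was a KO member. Xist, expressed from the inactive X chromosome of females, had a UMI in 202 WT members (59.1%) and 8 KO members (4.30%), and a Y-linked gene had one in 0 WT and 18 KO members. Among all kept cells a Y-linked gene had a UMI in 0 of 3861 in WT and in 239 of 3557 in KO. The sexes were thus unequally represented in the 2 libraries as a whole. No WT cell with a Y-linked UMI was found, although the labels give both sexes. Sex and genotype cannot be told apart here.

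The name of the cells was set against markers that the rule did not use. H2-DMb1 and Clec4b1, however, had been named with these cells from the same data. H2-DMb1 also belongs to the MHC class II gene group of the rule, so neither is an independent check. To compare shares of cells across depths, each cell was thinned to 1500 UMIs, which kept 202 WT and 69 KO members and left out 140 and 117. H2-DMb1 had a UMI in 52.5% of WT members and 42.03% of KO members (58.2% and 37.1% unthinned), against 0.0714% and 0.282% of thinned melanoma-gene cells. Ccr2, the receptor by which monocytes leave the bone marrow, had a UMI in 42.1% and 23.2% (41.5% and 23.7% unthinned), against 1 cell in each set of melanoma-gene cells. The lectins of monocyte-derived dendritic cells were in fewer members. Clec4b1 was in 20.3% and 21.7% (21.1% and 12.4% unthinned), Mgl2 in 18.3% and 7.25% (17.3% and 3.76% unthinned) and Cd209a in 9.90% and 2.90% (12.6% and 1.61% unthinned), each with at most 1 melanoma-gene cell in either library. Clec10a, a further such lectin, was in 12.4% and 7.25% (14.0% and 6.45% unthinned), fewer than the 16.3% and 17.9% of macrophage-gene cells. The complement genes C1qa, C1qb and C1qc, typical of macrophages, were in 56.4% and 68.1% (55.3% and 59.1% unthinned), against 1.86% and 2.96% of melanoma-gene cells. Csf1r, the receptor for the macrophage growth factor CSF1, was in 31.7% and 36.2% (35.4% and 32.8% unthinned), against 2 melanoma-gene cells in each library. Lyz2, the myeloid lysozyme, was in 88.6% and 88.4% (86.5% and 86.6% unthinned), against 4.07% and 3.52% of melanoma-gene cells. Other myeloid sets, thinned the same way, shared several of these markers. C1q genes were in 80.3% and 66.9% of cells that met every condition but the MHC class II limit. In macrophage-gene cells they were in 99.4% and 100%, and Csf1r was in 49.4% and 39.3%. Ccr2 was in 53.8% of 26 WT and 37.5% of 16 KO monocyte-gene cells. H2-DMb1 was in at most 23.1% of the cells of these sets in WT and 12.5% in KO. The members therefore carried markers of macrophages and of monocyte-derived dendritic cells side by side, and expression cannot show from which cell they came.

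The members were a smaller part of the KO library. They made up 8.86% of kept cells in WT (7.98% to 9.80%) and 5.23% in KO (4.52% to 6.01%), a log2 ratio of -0.76 (-1.03 to -0.50). Among cells that passed the myeloid gate, which leaves the melanoma cells out, the shares were 20.8% (18.9% to 22.8%) and 16.02% (14.0% to 18.3%), a log2 ratio of -0.38 (-0.64 to -0.12). The counterparts, which met every condition except the MHC class II limit, made up 31.1% and 27.4% of the same cells, and cells with macrophage genes 10.5% and 10.2%. Cells with MHC class II and a dendritic cell gene made up 4.74% and 1.81%. Whether the myeloid sets differ among themselves in this respect was not tested. When the rule was applied after thinning to 1500 UMIs, the log2 ratio of the member share was -1.49 of kept cells and -0.99 of gated cells. When members and denominator were limited to cells with at least 5 of 9 myeloid genes and few fibroblast or endothelial UMIs (called strict myeloid cells below, a limit set after the data were seen), it was -0.35 of kept cells.

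The members were not uniform. At 1500 UMIs per cell, 114 of 202 WT members and 47 of 69 KO members had a C1q UMI. The C1q members held less MHC class II, with a median of 1.32% of UMIs against 2.73% in the other WT members and 1.59% against 3.47% in KO. A lectin gene (Cd209a, Clec4b1, Mgl2 or Clec10a) was found in 81 WT and 24 KO members. Both kinds of gene were found in 38 WT and 13 KO members, so the markers did not exclude each other within a cell. A further 45 WT and 11 KO members had neither.

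Genes outside the split differed between the C1q members and the others in both libraries. Pf4, a chemokine of platelets and macrophages, stood at 1491 CPM against 106 CPM in WT and at 2369 against 303 CPM in KO. Apoe, a lipid carrier of macrophages that most melanoma-gene cells also held, stood at 4667 against 697 CPM in WT and at 6596 against 636 CPM in KO. The cathepsin genes Ctsb and Ctsl and the protease gene Lgmn were also higher with C1q, with log2 ratios of 2.01 and 2.16 for Ctsb, 2.28 and 1.89 for Ctsl and 2.32 and 2.75 for Lgmn in WT and KO. Spp1 (2.69 and 2.63), F13a1 (2.23 and 2.23) and Selenop (4.30 and 1.90, the latter from 24 UMIs against 1, which was set to 3) completed the 8 genes named on that side. The members without C1q had more Cst3, a protease inhibitor abundant in dendritic cells, at 5985 CPM against 1895 CPM in WT and 5394 against 1546 CPM in KO. H2-DMb1 was higher in them too, at 1098 against 374 CPM in WT and 879 against 369 CPM in KO. So were Cytip, an adaptor that regulates adhesion of dendritic cells, with log2 ratios of -1.64 and -2.28 for C1q over the rest, Lsp1 (-1.27 and -1.37), Zyx (-1.40 and -2.23), S100a11 (-1.03 and -2.10) and Syngr2 (-1.08 and -2.55). Ndufa6, a subunit of respiratory complex I, was the last gene named (-1.30 and -1.21, the KO interval reaching 0.04).

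**Figure D2:**
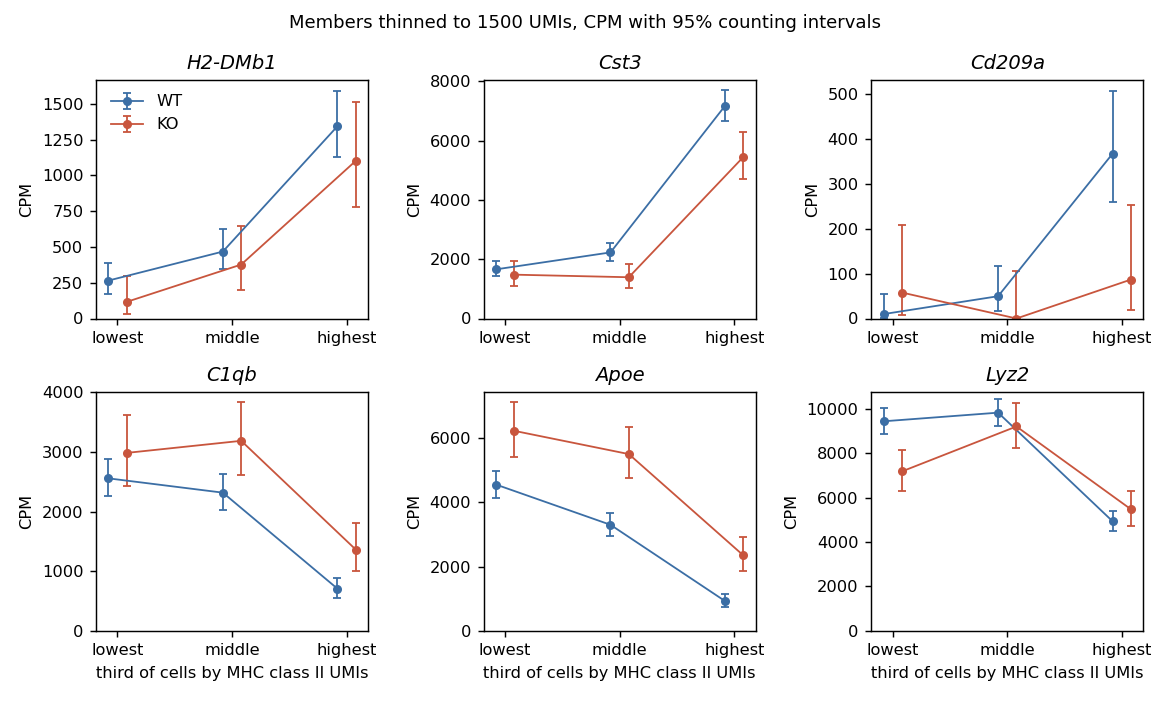
Levels (y axes, CPM of members thinned to 1500 UMIs, with 95% counting intervals) of genes in members divided into 3 near-equal groups by their MHC class II UMIs (x axis), for the WT and KO libraries. H2-DMb1 and Cst3 were highest, and C1qb and Apoe lowest, in the group with the most MHC class II in both libraries.

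Members were also ordered by MHC class II, which shows the same cells from the side of the rule genes and is no second line of evidence for the C1q split. The thinned members were divided into 3 groups of 68, 67 and 67 WT cells and of 23 KO cells each, by UMIs of the 4 MHC class II genes (genes shown were chosen after their values were seen). H2-DMb1 stood at 265, 468 and 1343 CPM from the lowest to the highest group in WT and at 116, 377 and 1101 CPM in KO. Cst3 stood at 1657, 2229 and 7174 CPM in WT and at 1478, 1391 and 5449 CPM in KO, the highest group standing far above the others in both libraries. Napsa, an aspartic protease, followed Cst3, with 68.6, 69.7 and 458 CPM in WT and 174, 87.0 and 667 CPM in KO. C1qb ran the other way, with 2559, 2318 and 706 CPM in WT and 2986, 3188 and 1362 CPM in KO, and Apoe stood at 4559 CPM in the lowest and 925 CPM in the highest WT group and at 6232 and 2348 CPM in those of KO. Il1b, the gene of the cytokine interleukin-1β, stood at 1029, 866 and 2388 CPM in WT. In KO it stood at 2493, 986 and 3130 CPM, without an order, since the intervals of the lowest and highest groups overlapped. Cd209a was near its floor except in the highest WT group, where 37 UMIs gave 368 CPM.

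To see what goes with MHC class II beyond the genes of the rule, the members were set against their MHC class II-low counterparts within each library, so that genotype does not enter. H2-DMb1 was 673 CPM in WT members against 39.6 CPM in counterparts, and 439 against 26.8 CPM in KO. H2-DMa was 525 against 65.4 CPM in WT and 371 against 32.6 CPM in KO. Ciita, the gene of the co-activator itself, gave 26 UMIs in WT and 3 in KO members and 1 and 0 in the counterparts. Ctss, the protease that degrades Cd74, stood at 1811 against 1845 CPM in WT and at 1531 against 1037 CPM in KO.

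Counterparts held cells of other kinds. Of their 512 WT and 318 KO cells, 15 and 16 had fibroblast genes at 0.5% of UMIs or more, and the KO counterparts gave 1223 CPM of B cell genes and 807 CPM of neutrophil genes, against 18.9 and 26.5 CPM in the KO members. Of the 5899 genes with at least 50 UMIs, 94 (1.59%) were higher in members by 2-fold or more in both libraries and 218 (3.7%) lower. Of the 12 genes named as lower, Col4a1, Col6a3, Col6a1, Col5a3, Cald1, Dcn, Thbs2, Sparc, Col4a2, Igfbp7 and Postn are matrix or mural cell genes and Fabp4 is a fatty acid carrier. Both sets were therefore also limited to strict myeloid cells, 258 and 143 members against 406 and 208 counterparts. Then 48 of 4417 genes were higher (1.09%) and 64 lower (1.45%), and the values that follow are from this limit, which itself asks for macrophage genes such as Csf1r, Adgre1 and Cd14. Neutrophil genes still took 773 CPM of the strict KO counterparts, against 28.2 CPM of the strict KO members.

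**Figure D3:**
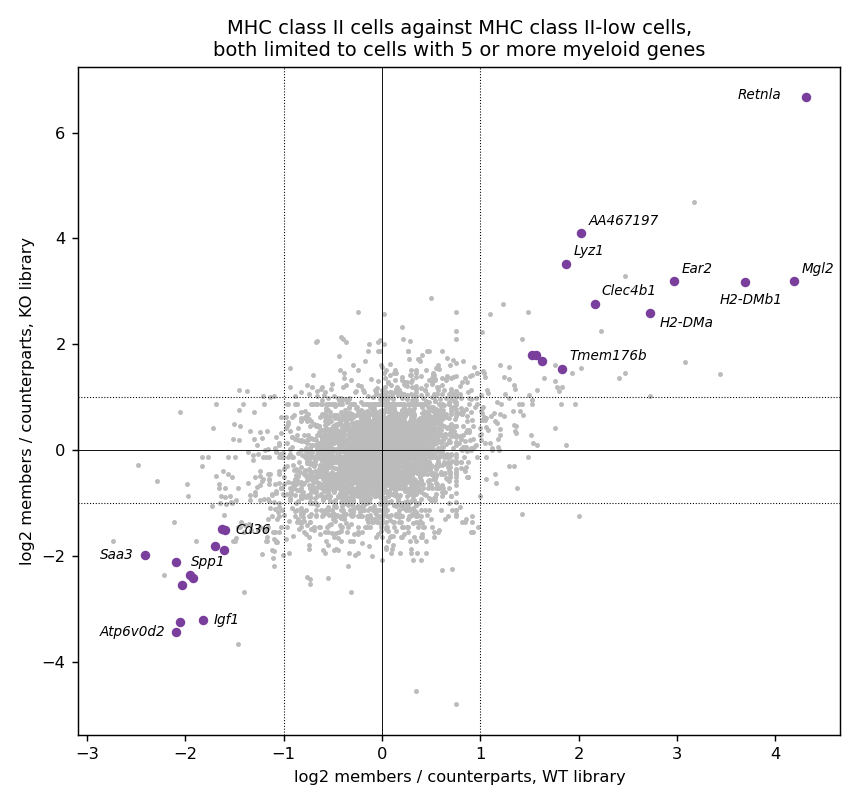
Log2 ratio of CPM in MHC class II members over MHC class II-low counterparts, both limited to strict myeloid cells, in the WT library (x axis) and the KO library (y axis), 1 point per gene outside the rule. Purple points are the 12 genes named in each direction, Retnla standing farthest out at 4.31 in WT and 6.67 in KO, and dotted lines mark 2-fold.

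The 12 genes named as higher in members included the lectin genes Mgl2 and Clec4b1 and both H2-DM genes. H2-DMb1 had log2 ratios of 3.69 in WT and 3.18 in KO and H2-DMa of 2.73 and 2.58. Mgl2 stood at 214 CPM against 11.7 CPM in WT and at 70.5 against 7.70 CPM in KO, and Clec4b1 at 178 against 39.8 CPM and 122 against 17.97 CPM. Retnla, which encodes a secreted protein induced by interleukin-4, stood at 2208 against 111 CPM in WT and at 785 against 7.70 CPM in KO, but few cells carried it (see the genotype comparison). Ear2, an eosinophil-type ribonuclease also made by monocytes and macrophages, had log2 ratios of 2.97 and 3.20, the latter from 15 UMIs against 1, which was set to 3 (2.08 to 10.2). Lyz1 had ratios of 1.87 and 3.52, AA467197 of 2.03 and 4.10 and Tmem176b of 1.83 and 1.54. Bcl2a1d (1.63 and 1.68), Rab11fip1 (1.57 and 1.81) and Plbd1 (1.53 and 1.79) completed the 12 genes named. Of the list of monocyte-derived dendritic genes, 8 of 12 were higher by 2-fold or more in both libraries and the medians were 1.71 in WT and 1.36 in KO, against -0.02 and -0.02 for all genes.

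Spp1, Gas6, Ctsk and Atp6v0d2 had log2 ratios below -2 in both libraries and were among the 12 genes named as lower in members. Spp1, the gene of osteopontin, stood at 860 CPM against 3663 CPM in WT and at 870 against 3732 CPM in KO. Gpnmb, a lysosomal membrane glycoprotein, had log2 ratios of -1.70 and -1.82, the fatty acid carrier Fabp4 of -1.61 and -1.88 and the scavenger receptor Cd36 of -1.60 and -1.51. Trem2, a lipid receptor of macrophages, had ratios of -1.39 and -1.42. Atp6v0d2 (-2.10 and -3.42), Gas6 (-2.05 and -3.24), Ctsk (-2.03 and -2.54), Igf1 (-1.82 and -3.21) and Folr2 (-1.62 and -1.49) were lower as well, the KO values of the first 4 resting on 2 or 3 UMIs in the members. Saa3, Slc27a1 and Slc6a8 completed the 12. Of 15 genes of lipid handling, 5 were lower by 2-fold or more in both libraries (medians -0.91 and -0.84), and of 17 core macrophage genes 2 were (medians -0.66 and -0.68). Apoe was among those with smaller ratios, -1.03 in WT and -0.71 in KO.

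**Figure D4:**
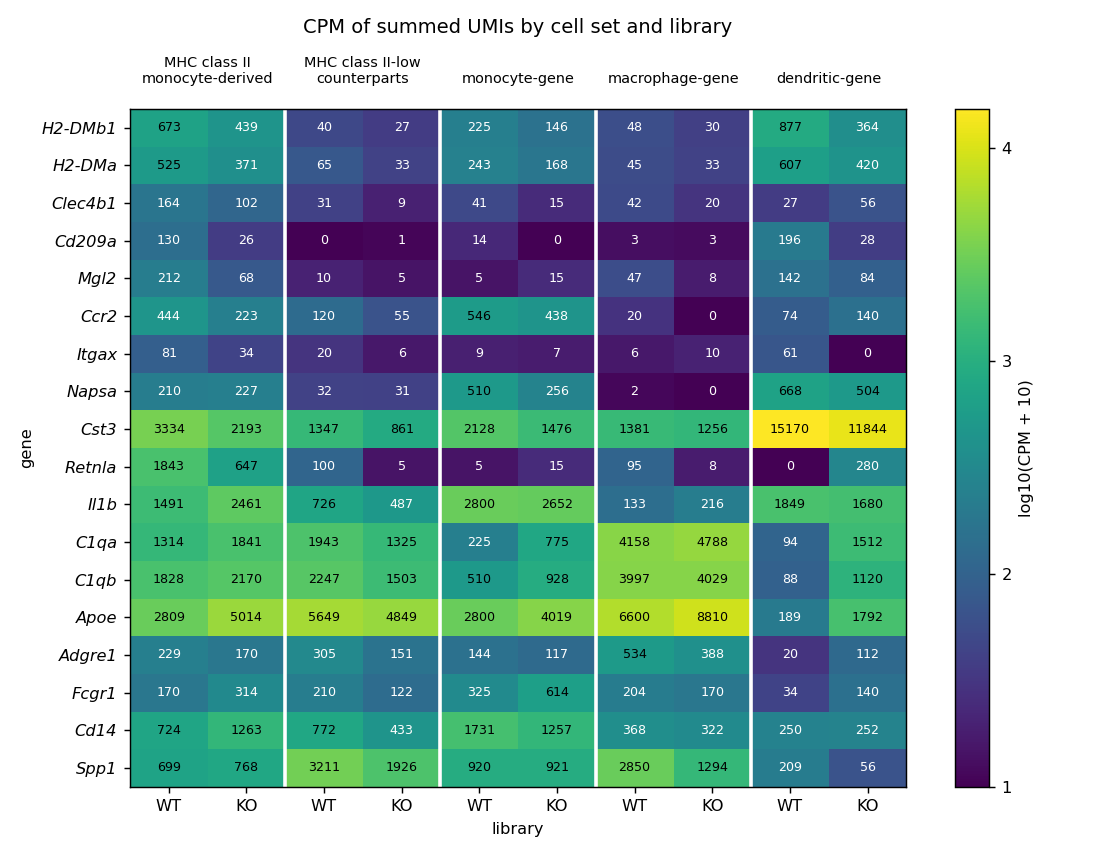
Level (colour, log10 of CPM + 10, with the CPM printed in each cell) of marker and effector genes (rows) in the members and in 4 other myeloid sets (columns) of the WT and KO libraries. H2-DMb1 and H2-DMa are higher in the members than in the monocyte-gene, macrophage-gene and MHC class II-low cells of the same library, and Cst3 is highest in the dendritic-gene cells. In the dendritic-gene cells H2-DMa is higher than in the members of the same library, and H2-DMb1 is higher in WT and lower in KO.

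The levels in the other myeloid sets are a description, since all sets were chosen by markers and the order of Cd74, a gene of the rule, follows from the choice. Cd74 was 10059 CPM in WT and 11090 CPM in KO members, 15973 and 14420 CPM in dendritic-gene cells, 2106 and 1893 CPM in monocyte-gene cells and 401 and 132 CPM in macrophage-gene cells. Cst3, which no set was chosen on, was 15170 and 11844 CPM in dendritic-gene cells against 3334 and 2193 CPM in members. C1qb was 1828 and 2170 CPM in members, 3997 and 4029 CPM in macrophage-gene cells and 87.7 and 1120 CPM in dendritic-gene cells, the last from 13 and 40 UMIs. Ccr2 was 444 and 223 CPM in members and 546 and 438 CPM in monocyte-gene cells, but 19.6 CPM in WT macrophage-gene cells, with no UMI in those of KO. Mgl2 and Retnla were at their highest in WT members among the WT sets, 212 CPM and 1843 CPM, the next being 142 CPM of Mgl2 in dendritic-gene cells and 100 CPM of Retnla in the MHC class II-low cells.

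The genotype comparison began with Atf4 itself (chr15:80255184-80257545), whose last exon, where reads of these libraries fall, lies within the floxed stretch. It gave 125 UMIs in 102 of 342 WT members and 13 UMIs in 12 of 186 KO members, 199 CPM and 49.2 CPM, a log2 ratio of -2.02 (-2.97 to -1.19). At 1500 UMIs per cell the shares of cells with a UMI were 22.3% and 4.35%, against 27.7% and 27.3% in melanoma-gene cells, which keep the gene. Dct, a melanoma gene, had a UMI in 39.6% and 34.8% of thinned members, so RNA of other cells was present in these droplets. With free RNA subtracted the log2 ratio of Atf4 was -2.53, and with the rule applied after thinning -3.11. With members chosen before thinning it was -2.59 (-4.92 to -0.97), from 53 UMIs in WT and only 3 in KO.

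Of 2419 genes with at least 50 UMIs in the members, called tested below although no p-value was computed, 41 were higher in KO by 2-fold or more (1.69%) and 86 lower (3.56%), and the median log2 ratio was -0.04. Centring the ratios on their median gave 55 and 75. The interval left out 0 for all 41 of the higher and 85 of the lower genes.

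**Figure D5:**
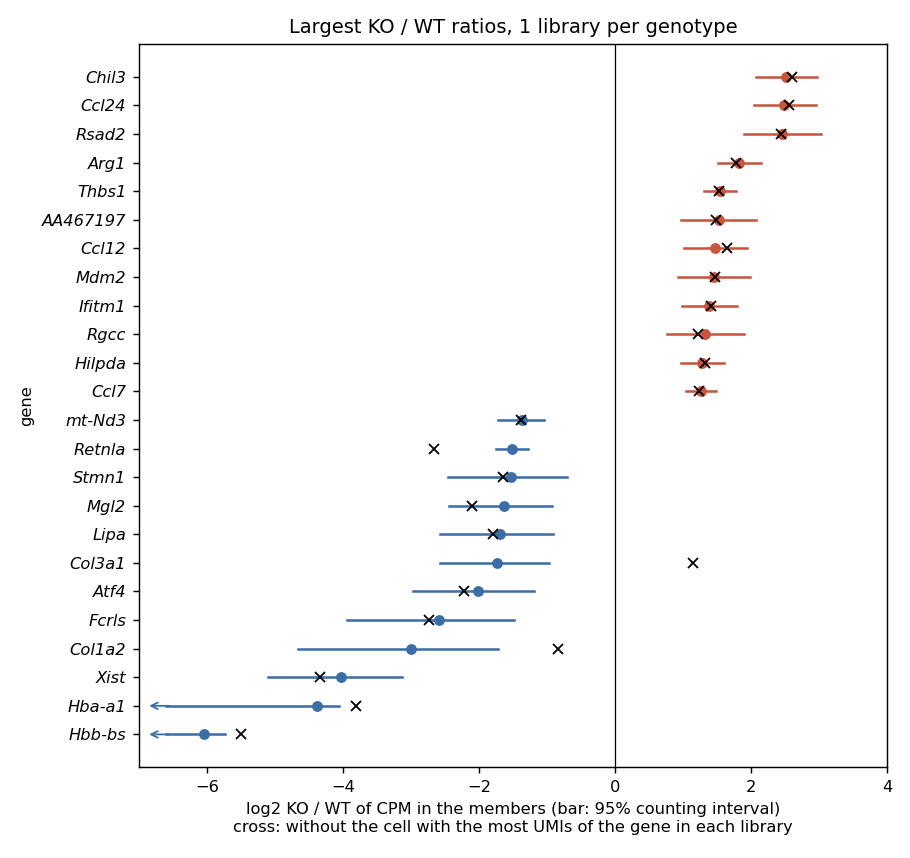
Log2 ratio of KO over WT (x axis) in the members for the 12 genes with the largest ratio in each direction (rows), with 95% counting intervals and arrows where KO had no UMI. Crosses leave out the cell with the most UMIs of the gene in each library, which takes Col3a1 from -1.73 to 1.14 and Retnla from -1.51 to -2.65.

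The 4 genes that chose the cells are no result here and had log2 ratios of 0.14 for Cd74, 0.09 for H2-Aa, 0.06 for H2-Ab1 and -0.03 for H2-Eb1. H2-DMb1 and H2-DMa, which the rule did not use, were lower in KO. H2-DMb1 gave 423 UMIs in WT and 116 in KO, 673 and 439 CPM, a log2 ratio of -0.62 (-0.93 to -0.32). H2-DMa gave 525 and 371 CPM, a ratio of -0.50 (-0.84 to -0.17). Both genes were lower in KO in each of the other myeloid sets too. H2-DMb1 stood at 225 and 146 CPM in monocyte-gene cells and at 39.6 and 26.8 CPM in the MHC class II-low cells. Ciita gave 41.4 and 11.3 CPM (-1.87, -4.23 to -0.16), from too few UMIs to be tested. The proteases that process Cd74 and antigen went different ways, with ratios of -0.24 for Ctss (-0.41 to -0.08), 0.13 for Lgmn (-0.07 to 0.33) and 0.50 for Ctsl (0.30 to 0.71). Of the 14 genes of the machinery list 6 were tested, the median was -0.06 and none passed 2-fold. MHC class I genes (10 of 16 tested, median -0.14) and costimulatory genes (6 of 14, median -0.23) held none past 2-fold either. Cd86, the ligand of CD28, gave 130 and 212 CPM in WT and KO (0.70, 0.18 to 1.21).

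Genes of monocyte-derived dendritic cells were lower in KO members as a list before thinning. Of 19 genes 13 were tested, 10 of them had a ratio below 0, and 4 were lower by 2-fold or more against 3.56% of all genes, with a median of -0.68. Cd209a gave 82 UMIs in 43 WT cells and 7 UMIs in 3 KO cells, 130 and 26.5 CPM (-2.30, -3.66 to -1.19). Mgl2 gave 133 UMIs in 59 cells and 18 UMIs in 7 cells, 212 and 68.1 CPM (-1.64, -2.44 to -0.92). Tnip3, an inhibitor of NF-κB signalling, had a ratio of -1.26 (-1.96 to -0.63) and Itgax, the gene of CD11c, of -1.25 (-2.46 to -0.22). Ccr2 stood just inside 2-fold at 444 and 223 CPM (-0.99, -1.42 to -0.58). Napsa (0.11), Syngr2 (0.02) and Clec4a1 (-0.03) did not differ beyond counting error. Clec4b1 stood at 164 and 102 CPM. With the rule applied after thinning to 1500 UMIs, Napsa (0.53), Clec4a1 (0.80) and Syngr2 (0.45) had ratios above 0. Clec4b1 (-0.20), Clec10a (-0.99), Mgl2 (-0.86), Cd209a (-1.70), Itgax (-1.79), Tnip3 (-1.22) and Ccr2 (-0.99) were below 0. Clec4b1 was at 0.02 (-0.84 to 0.82) with members chosen before thinning. The list median was not taken after thinning.

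Core macrophage genes had mostly ratios above 0. Of 18 core macrophage genes 16 were tested, 14 had a ratio above 0 and none passed 2-fold, with a median of 0.21. Apoe gave 2809 and 5014 CPM (0.84, 0.73 to 0.94), Cd14, the lipopolysaccharide co-receptor, 724 and 1263 CPM (0.80, 0.59 to 1.01) and the Fc receptor Fcgr1 170 and 314 CPM (0.88, 0.45 to 1.31). Apoe is not limited to macrophages here. It was in 47.0% and 58.0% of thinned members, but in 72.1% and 67.9% of thinned melanoma-gene cells (895 and 826 CPM unthinned). The part of melanoma RNA in its ratio was not tested. C1qa (0.49) and C1qb (0.25) were slightly higher, while Csf1r (0.11, -0.32 to 0.52) and Lgals3 (0.17) were nearly level. Of 9 monocyte genes tested, with a median of 0.12, 2 were higher by 2-fold or more, while Ccr2, also of this list, was lower (-0.99). One was Chil3, at 97.1 and 556 CPM (2.52), which was part of the rule. The other was Vcan, a matrix proteoglycan of classical monocytes, at 46.1 and 197 CPM (2.09, 1.41 to 2.80). The C-type lectins Clec4e and Clec4d, sensors of microbial and damaged-cell products, stood at 183 and 420 CPM (1.20) and at 143 and 291 CPM (1.02). They were the 2 Fc receptor and lectin genes past 2-fold on the higher side, among 12 tested, of which 11 had a ratio above 0.

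Chemokine genes were higher in KO members. Of 13 tested 12 had a ratio above 0, 6 were higher by 2-fold or more against 1.69% of all genes, and the median was 0.82. Ccl7, a ligand of CCR2, gave 355 UMIs in 95 WT cells and 359 UMIs in 69 KO cells, 565 and 1357 CPM (1.26, 1.05 to 1.48). Ccl24, a ligand of CCR3, gave 58 UMIs in 20 cells and 137 UMIs in 33 cells, 92.3 and 518 CPM (2.49, 2.04 to 2.96). Ccl3 stood at 156 and 333 CPM (1.09), Ccl4 at 347 and 764 CPM (1.14) and Pf4 at 804 and 1705 CPM (1.09). Ccl17 gave 22 and 44 UMIs (2.25), 18 of the 44 from 1 cell. The most abundant members of the list, Cxcl2 (2801 and 4783 CPM, 0.77), Ccl2 (1208 and 2110 CPM, 0.80) and Ccl6 (2166 and 3191 CPM, 0.56), were higher by less than 2-fold. Ccl12, which the rule used, had a ratio of 1.47. Of 8 inflammatory cytokine genes tested all had a ratio above 0, with a median of 0.45. Il1b gave 1491 and 2461 CPM (0.72, 0.58 to 0.87), and Tnf, at 146 and 329 CPM (1.17, 0.73 to 1.61), was the 1 past 2-fold.

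The list of alternative activation genes, which macrophages raise under interleukin-4, was split. Of 11 tested, 4 were higher and 2 lower by 2-fold or more, against 1.69% and 3.56% of all genes, and 1 of the 4 was Chil3, a gene of the rule. Arg1, an enzyme that breaks down arginine, gave 142 UMIs in 35 WT cells and 212 UMIs in 44 KO cells, 226 and 802 CPM (1.83, 1.51 to 2.14). At 1500 UMIs per cell it was in 11.9% of WT and 26.1% of KO members (10.2% and 23.7% unthinned), against 0.0714% and 0.282% of melanoma-gene cells. Il4ra, a chain of the interleukin-4 receptor (1.10), Tgm2, a transglutaminase (1.08), and Chil3 were the other higher genes. Retnla gave 1158 UMIs in 60 WT cells and 171 UMIs in 11 KO cells, 1843 and 647 CPM (-1.51, -1.75 to -1.28). A single KO cell held 101 of the 171 UMIs, and without the cell with the most UMIs in each library the ratio was -2.65. Mgl2 was the other lower gene.

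Thbs1, the gene of the matrix protein thrombospondin-1, gave 452 and 1316 CPM (1.54, 1.31 to 1.77) and had a UMI in 37.7% of WT and 57.0% of KO members unthinned (35.1% and 46.4% thinned, against 7 of 1400 and 16 of 1419 melanoma-gene cells). Of 21 hypoxia and glycolysis genes tested 19 had a ratio above 0 and 1 passed 2-fold, with a median of 0.39. Gapdh (0.56), Pkm (0.53) and Mif (0.71) were higher, Ldha (0.03, -0.17 to 0.22) was level, and Vegfa was the 1 past 2-fold (1.11, 0.33 to 1.88). Hilpda, a regulator of lipid droplets that hypoxia induces, stood outside the list at 269 and 654 CPM (1.28, 0.97 to 1.60). Of 10 interferon-stimulated genes tested 6 had a ratio above 0 and 4 below, 2 were higher by 2-fold or more and none lower, and the median was 0.88. Rsad2, an antiviral enzyme, gave 40 UMIs in 19 WT cells and 92 UMIs in 16 KO cells (2.45, 1.90 to 3.02) and Ifit1 28 and 49 UMIs in 16 and 12 cells (2.06), while Ifi27l2a, the most abundant of them, was lower at 1509 and 945 CPM (-0.67, -0.88 to -0.47).

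Of 21 lysosomal genes tested the median was -0.09, and Lipa and Hexa were lower by 2-fold or more. Lipa, the lysosomal acid lipase, gave 183 and 56.7 CPM (-1.69, -2.57 to -0.91), and Hexa, a subunit of β-hexosaminidase, 403 and 200 CPM (-1.01, -1.46 to -0.57). Cst3 stood at 3334 and 2193 CPM (-0.60, -0.74 to -0.47). It was lower in KO in the other myeloid sets too, with 1347 and 861 CPM in the MHC class II-low cells and 2128 and 1476 CPM in monocyte-gene cells. Macrophage-gene cells had 1381 and 1256 CPM and dendritic-gene cells 15170 and 11844 CPM. Of 13 lipid handling genes tested 2 were lower by 2-fold or more, Lipa and the cholesterol exporter Abcg1 (-1.31). Lpl, lipoprotein lipase, gave 952 and 476 CPM (-0.998, -1.29 to -0.72). Lpl was lower in KO in the MHC class II-low cells (1014 and 244 CPM) and macrophage-gene cells (972 and 348 CPM) as well. In monocyte-gene cells it stood at 207 and 153 CPM, and in dendritic-gene cells it was higher in KO, from 12 and 11 UMIs.

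The known targets of ATF4 were not lower as a list. Of 44 targets listed, 13 had enough UMIs, 9 of them had a ratio above 0 and 4 below, with a median of 0.20. Only Vegfa passed 2-fold, on the higher side. Cebpb, a transcription factor of the myeloid lineage, stood at 874 and 1006 CPM (0.20, -0.01 to 0.42), Slc3a2, a chain of amino acid transporters, at 411 and 389 CPM (-0.08, -0.42 to 0.26), and Atf3 at 224 and 242 CPM (0.11, -0.34 to 0.55). These single values moved with the rule applied after thinning to 1500 UMIs. Cebpb was then at -0.20, Slc3a2 at -0.42 and Atf3 at -0.55, while Vegfa (0.77) and Slc38a2 (0.31) were above 0. The other 31 targets had too few UMIs to be read singly. Together they gave 363 UMIs in WT and 133 in KO, 578 and 503 CPM (-0.20, -0.50 to 0.09), with 15 of them lower in KO and 13 higher. Among them Asns, asparagine synthetase, gave 5 and 7 UMIs, Trib3 0 and 2, Atf5 13 and 0, Aars 25 and 5, Slc7a1 13 and 2 and Yars 9 and 0.

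The remaining named genes were few in UMIs or tied to other cells. Mdm2, a p53 target, had a ratio of 1.46 (0.93 to 1.99), Rgcc of 1.33, AA467197 of 1.52 and Ifitm1 of 1.39. Rgcc alone of these turned direction after thinning, to -0.22. Stmn1, a gene of dividing cells, had a ratio of -1.53, and 3 of 4 G2/M genes tested were lower by 2-fold or more, Ube2c (-2.40), Birc5 (-1.64) and Mki67 (-1.01, -2.23 to 0.05). Fcrls, used by the rule, had a ratio of -2.59 and the mitochondrial gene mt-Nd3 of -1.37 (-1.72 to -1.05), the 1 of 12 mitochondrial genes tested that passed 2-fold. Xist had a ratio of -4.03. Globin genes, which mark red cell RNA, were listed at 0 in KO members, so that Hbb-bs with 468 WT UMIs had a log2 ratio of -6.04 or less and Hba-a1 with 148 of -4.38 or less when KO was set to 3 UMIs. Over all barcodes the globin genes took 4632 CPM of the WT and 17.9 CPM of the KO library. The collagen genes Col1a2 (-2.999), Col1a1 (-2.71) and Col3a1 (-1.73) rested on 1 WT cell, which held 274 of the 314 WT UMIs of the 3 genes. Without the top cell in each library Col3a1 had a ratio of 1.14 and Col1a2 of -0.84.

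Several of these ratios were smaller when the rule was applied after thinning to 1500 UMIs. This keeps the deeper cells and also alters which of them are members. The ratio of Ccl24 was then 0.45, of Hilpda 0.30, of Clec4d 0.42, of Clec4e 0.91, of Mgl2 -0.86, of Retnla -0.44, of H2-DMb1 -0.29 and of H2-DMa -0.10. Vegfa (0.77), Il4ra (0.75), Tgm2 (0.74), Hexa (-0.78) and Mki67 (0.17, a change of sign) were no longer past 2-fold either. Arg1, Thbs1 (1.28), Rsad2, Ccl7, Ccl3 (1.67) and Ccl4 (1.44) on the higher side and Cd209a (-1.70) and Lipa on the lower side remained past it. With members chosen before thinning, the same depth gave 0.70 for Ccl24, 0.57 for Hilpda, -0.95 for Mgl2 and -1.28 for Retnla. H2-DMb1 was then at -0.38 and H2-DMa at -0.33.

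Markers of other cell types were low in the members but not equal. Summed over the whole list of each type, fibroblast genes (10 in the files) took 687 CPM in WT and 178 CPM in KO, endothelial genes (9) 36.6 and 15.1 CPM, T and NK cell genes (14) 27.1 and 52.9 CPM, B cell genes (9) 52.5 and 18.9 CPM and neutrophil genes (10) 12.7 and 26.5 CPM. Melanoma genes (12) took 1197 and 1055 CPM, and mast cell genes (9) had no UMI. The part of these in the ratios above was not tested.

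Because the C1q members made up 56.4% of thinned members in WT and 68.1% in KO, the genotype ratios were also read within the C1q members and within the rest. Arg1 was higher in KO in both, from 357 to 1050 CPM with C1q (1.56, 1.05 to 2.07) and from 68.2 to 667 CPM without (3.29, 2.11 to 4.59). Ccl7 (1.31 with C1q and 2.78 without), Thbs1 (0.85 and 2.07), Cd14 (0.81 and 1.06), Il1b (0.59 and 0.88) and Cxcl2 (0.67 and 0.58) were likewise higher in both. Ccr2 was lower in both (-0.81 and -1.25), and so was Retnla (-1.14 and -4.37, the latter from 165 UMIs against 2). These are thinned values, and are to be read against all thinned members rather than against the ratios above. Over all thinned members Apoe had a ratio of 0.68, against 0.50 with C1q and -0.13 without (-0.89 to 0.56). Cst3 had -0.41, against -0.29 and -0.15, and H2-DMb1 -0.38 (-0.83 to 0.06), against -0.02 and -0.32, both genes with intervals that held 0 in each part. Mgl2 gave 439 CPM in WT and 424 CPM in KO members without C1q (-0.05, -1.01 to 0.81), and 21 UMIs against none with C1q, where all thinned members had a ratio of -0.95 (-1.88 to -0.12). Ccl24 had already a ratio of 0.70 (-0.31 to 1.66) over all thinned members, from 27 and 15 UMIs, so the parts add nothing on it. Rsad2 was higher in both, with 8 UMIs against 23 and 2 against 16. The difference between the parts in these ratios was not tested.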

How the data were processed

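Tumours had been dissociated and loaded on a 10x Genomics Chromium controller, 1 library per host genotype. The deposited values are raw UMI counts per gene and cell barcode, which the authors made with Cell Ranger (3.1.0 in the submitters' processing notes, GRCm38) and did not normalize. The labels and the study's methods name unlike kit versions, so none is given. The libraries held 38417113 (WT) and 38290024 (KO) UMIs over 6304 and 5474 barcodes and 31053 genes.

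Kept barcodes had 200 to 5000 genes and no more than 7.5% of UMIs from mitochondrial genes, and the rule was applied to each. UMIs were summed over members per library and scaled to CPM. Ratios have exact conditional binomial intervals, levels exact Poisson and shares exact Clopper-Pearson intervals (95%), and counts under 3 were set to 3. Genes with at least 50 UMIs were tested against a 2-fold limit, without p-values. Thinning to 1500 UMIs per cell left shallower cells out. Doublets were called with Scrublet in scanpy 1.11.5 and kept. Python 3.11.15, numpy 2.4.6, pandas 2.3.3, scipy 1.17.1 and matplotlib 3.10.9 were used. The steps were tested on simulated data.

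Named genes were the rule genes and markers, Atf4 and the sex-linked genes, the 12 largest ratios in each direction at 100 UMIs or more with an interval off 0, for each list its 4 most abundant genes and those past 2-fold, and the 8 largest each way between the C1q parts. Ciita, Cd14, Fcgr1, Csf1r, Lyz2, Trem2, Clec10a, Asns, Trib3, Atf5, Aars, Slc7a1 and Yars lie outside this rule and were named after their values were seen. The members and the lists were chosen with earlier results of these data known. Gene positions and promoters are from RefSeq on GRCm38.p6. A result on an item withheld from this text is not reported here.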

Additional observations from a re-analysis of the deposited data

Results flagged for a closer look

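The 5 genes below stood on opposite sides of their counterparts in the 2 libraries, with an interval off 0 in each, when members were set against MHC class II-low cells among strict myeloid cells. Arg1 had a log2 ratio of members over counterparts of -0.86 in WT and 0.42 in KO. Ccl7 had ratios of -0.78 and 0.74, Ccl2 of -0.48 and 0.83, and Cxcl2 of -0.36 and 0.92. Mdm2 had ratios of -0.77 and 0.64. The difference between the libraries in these ratios was not tested, since each library is the only one of its genotype. The strict KO counterparts still held neutrophil genes at 773 CPM, against 28.2 CPM in the strict KO members and 13.9 and 16.4 CPM in the strict WT members and counterparts, and the part of these cells in the ratios was not tested.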

How the results depend on the processing

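Of the alternatives run on the main results, 84 values stayed within their spread and 21 moved, and for single genes 1052 stayed, 102 moved and 15 turned direction. A turn was counted only where the interval of the main ratio left out 0. Other changes of sign, such as those of Mki67, Atf3 and Cebpb after thinning, were counted as moved. No paired analysis was possible because WT and KO were single libraries, and for the same reason no replicate could be left out. A comparison limited to Xist-positive members was not run, since KO had 8 of them. The log2 ratio of the member share was -1.49 of kept and -0.99 of gated cells after thinning, and -0.35 of kept cells among strict myeloid cells. Thinning also gave 21 higher and 34 lower genes, a hypoxia median of 0.17 and Atf4 at -3.11. Atf4 was at -2.59 with members chosen before thinning, from 3 KO UMIs, and the other alternatives kept it between -1.86 and -2.53. A minimum of 20 UMIs gave 155 higher and 365 lower genes and one of 200 UMIs 10 and 7, with a class II machinery median of -0.24. Members of 1000 to 3000 UMIs (chosen after seeing the data) gave 56 lower genes. Strict myeloid cells (likewise) moved the medians of the machinery to -0.28 and of ATF4 targets to 0.39. Against the counterparts, 168 genes were higher at 20 UMIs, 30 at 200 UMIs and 48 among strict cells, and 38 were lower at 200 UMIs, 115 with equal weight per cell and 64 among strict cells. The ratios counted as turned were Col3a1 (1.06 at a 1% MHC class II limit, 1.25 strict, 1.72 at 1000 to 3000 UMIs, 1.14 without the top cell), Sparc (0.53, 0.58, 0.32 and 0.15 in that order), Col1a1 (0.19, 0.024, 0.60 and 0.40), Rgcc (-0.22 thinned) and Lgals3 (-0.0087 thinned, -0.017 strict). The WT collagen UMIs lay largely in 1 cell. The cause of the other changes was not tested. Depth limits what can be said of the KO members: 69 of 186 reached 1500 UMIs.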
